A study of Homo sapiens with 26 samples.

Results

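The 10 genes described here are Wnt pathway feedback genes and their closest partners, read from counts of HCT116, a cell line from a human colorectal carcinoma. The members were chosen by a fixed list of symbols, DKK1, WNT9A, LGR5, RNF43, ZNRF3, AXIN2, NKD1, CTNNB1, TCF7 and SP5, among 63086 genes in the count tables, and DKK1 was known beforehand as one of the largest falls under arsenite in WT cells. That contrast, and differences from it, are therefore given as values without a test, as are the differences of DKK1 from WT cells in either treatment. The other members were also chosen with earlier results of these data known, so no test below is independent of the choice. Poly(A) RNA was sequenced from 26 libraries. In 24 of them the cells were IGF2BP2 KO and IGF2BP3 KO, carried Tet-OsTIR1-PURO and expressed mCherry-IGF2BP1 from a lentivirus, as WT, S181E, Y396E or RQ. In S181E a serine and in Y396E a tyrosine of a disordered linker is replaced by glutamate, which mimics a phosphate, and in RQ arginines are replaced by glutamine. Each of these 4 populations was sampled as 3 libraries with PBS (control) and 3 libraries after 2 h in 500 µM sodium arsenite, an oxidative stressor. The remaining 2 libraries were parental HCT116 cells, 1 per treatment, with no replicate. By the study's methods the knockouts were made as single-cell clones, the 4 populations were sorted through a narrow fluorescence gate and the dishes were plated independently, so each mutation was sampled in 1 population and mutation and population cannot be told apart.

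In canonical Wnt signalling, a Wnt ligand bound to Frizzled and LRP receptors stops the destruction complex from degrading beta-catenin, which then enters the nucleus and activates genes together with TCF/LEF factors. Several of the activated genes act back on the pathway. DKK1 is secreted and blocks the LRP co-receptors, RNF43 and ZNRF3 are membrane ubiquitin ligases that remove Frizzled from the cell surface, AXIN2 is a scaffold of the destruction complex, NKD1 binds Dishevelled and SP5 is a zinc finger repressor. HCT116 cells carry an activating mutation in one allele of CTNNB1, the gene of beta-catenin, so the pathway is on without added ligand, and colorectal tumours of this kind are a usual setting for measuring these genes.

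Promoter sequences of 300 bases (250 before to 50 after the start, RefSeq, GRCh38.p14) were matched for 6 of the 10 genes, as 8 promoters. AXIN2, LGR5, ZNRF3 and NKD1 had no entry. The letters searched were CTTTGAA and CTTTGAT on both strands, which are core letters that TCF/LEF factors prefer. They share their first letters and were counted separately, and they occurred in 6.86% of the 35116 promoters in the table. Of the members' promoters, those of DKK1 and SP5 held a match and the other 6, of WNT9A, RNF43, CTNNB1 and TCF7, held none. Both are shown because, among the members, DKK1 had the largest arsenite difference and SP5 the largest control difference between mutant and WT cells, with the matched letters in capitals (TTCAAAG is CTTTGAA read on the other strand).
DKK1 (chr10:52314031-52314330, plus strand): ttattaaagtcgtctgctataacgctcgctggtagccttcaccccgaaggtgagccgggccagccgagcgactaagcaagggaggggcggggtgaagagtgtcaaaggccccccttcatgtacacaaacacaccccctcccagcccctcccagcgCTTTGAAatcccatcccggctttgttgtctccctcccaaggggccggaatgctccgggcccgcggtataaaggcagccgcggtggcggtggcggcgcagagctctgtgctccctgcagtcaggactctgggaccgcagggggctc
SP5 (chr2:170715087-170715386, plus strand): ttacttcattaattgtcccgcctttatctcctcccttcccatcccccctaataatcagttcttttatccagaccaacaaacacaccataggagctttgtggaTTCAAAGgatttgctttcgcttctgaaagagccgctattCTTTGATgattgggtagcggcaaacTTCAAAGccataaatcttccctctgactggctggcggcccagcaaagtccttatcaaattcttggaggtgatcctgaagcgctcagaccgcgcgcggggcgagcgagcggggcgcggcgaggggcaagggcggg
The match in DKK1 began 95 bases before the start. The matches in SP5 began 148, 109 and 84 bases before it, and 0.0256% of the promoters (9 in all) held 3 or more. A match is only a run of letters and was not tested as a binding site.

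Totals ranged from 22508145 to 50834401 counts per library. The library Y396E arsenite replicate 3 stood apart, with counts in 13897 genes against at least 20850 in each of the others, and results that rest on it are given with and without it. IGF2BP1 had 10.6 to 20.4 CPM in the 12 control libraries and 27.4 to 46.7 CPM in the 12 arsenite libraries, against 0.348 and 0.632 CPM in the parental pair (CPM, counts scaled to library size with TMM factors). Its control mean was 12 ± 2.25 CPM in WT and 14.2 ± 1.86 CPM in RQ (SD, n = 3). In control S181E cells it was 18.7 ± 1.51 CPM and in control Y396E cells 16.4 ± 1.2 CPM (SD, n = 3). After arsenite the WT libraries were lowest, at 27.4 to 29.5 CPM, and the RQ libraries highest, at 45.1 to 46.7 CPM. Those of S181E and Y396E lay between, at 41.4 to 43.9 CPM. The order of the populations thus differed between treatments, and the part of IGF2BP1 in the differences below was not tested. IGF2BP2 and IGF2BP3 transcripts were still counted in the knockout cells, at 60.4 to 90.2 and 107 to 165 CPM, so RNA level does not check these knockouts. Epithelial markers were present (EPCAM at 300 to 486 CPM, KRT8, KRT18, KRT19, CDH1 and CDX2 at 18.1 CPM or more), while VIL1, CEACAM5 and LGALS4, also listed as markers of colorectal epithelium, stayed at 0.222 CPM or less. Of the markers of fibroblasts, leukocytes and endothelium, COL1A1 reached 6.36 to 11.4 CPM and every other one stayed under 1 CPM. In bulk RNA, fewer cells with a transcript and less of it per cell cannot be told apart.

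Per kilobase of exon, the only scale on which genes are compared here, DKK1 was the most abundant member, with a median of 254 CPM per kilobase over the 24 libraries and a range from 19.5 to 816. CTNNB1 (median 26.4) and TCF7 (11.1) followed, then ZNRF3 (3.02), WNT9A (2.76) and RNF43 (1.34). SP5 (0.804), AXIN2 (0.582) and NKD1 (0.569) were low, and their ranges, 0.0388 to 2.71, 0.121 to 2.71 and 0.418 to 1.05 CPM per kilobase, overlapped. ZNRF3 ranged from 1.31 to 3.64 and WNT9A from 1.15 to 9.56, so these neighbours overlapped as well. A set of 9 members passed the filter of a mean of 0.5 CPM over the 24 libraries and was tested. LGR5 did not pass.

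DKK1, the secreted LRP antagonist (ENSG00000107984.10, chromosome 10, 52314281 to 52317657 on the plus strand of hg38), was read in every library. In WT cells it had 897, 1063 and 774 CPM in the control libraries and 51.2, 51.5 and 54.4 CPM in the arsenite libraries. In RQ cells control libraries had 802, 866 and 683 CPM and arsenite libraries 39.7, 39.0 and 35.3 CPM. Control and arsenite libraries were thus far apart in both populations, and the RQ arsenite libraries all lay below those of WT. In S181E cells the values were 1473, 1422 and 1299 CPM in control and 209, 215 and 204 CPM in arsenite. Y396E control libraries had 1453, 1429 and 1345 CPM, and its arsenite libraries 215, 223 and 232 CPM. Every S181E and Y396E library lay above every WT and RQ library of the same treatment. The parental pair had 782 CPM without and 80.8 CPM with arsenite.

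WNT9A, a secreted Wnt ligand (ENSG00000143816.8, chromosome 1, 227918656 to 227947932, minus strand), had 38.3, 37.7 and 33.6 CPM in WT control libraries and 6.64, 4.95 and 5.93 CPM in WT arsenite libraries. RQ control libraries had 27.4, 23.8 and 24.6 CPM, and S181E and Y396E control libraries had 13.6 to 15.9 and 15.6 to 18.2 CPM. The 4 control groups were thus ordered WT, RQ, then the phosphomimetic pair, whose ranges overlapped. In arsenite all 12 libraries lay between 4.60 and 8.50 CPM and the populations overlapped. DKK1 and WNT9A, the members that act outside the cell, were both lower in arsenite than in control in every population, but in control cells DKK1 was highest and WNT9A lowest in S181E and Y396E.

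LGR5, a receptor for R-spondins and a marker of intestinal stem cells (chromosome 12, 71439798 to 71586310, plus strand), was at 0 counts in 21 of the 24 libraries and in both parental libraries. It had 2 counts each in RQ control replicate 2, S181E control replicate 3 and Y396E arsenite replicate 2, below the 3 counts taken as the detection limit, which correspond to 0.0572 to 0.133 CPM depending on the library. No difference in LGR5 was detectable at this depth. RNF43 (chromosome 17, 58353676 to 58417582, minus strand) had 6.84, 5.38 and 8.47 CPM in WT control libraries and 15.5, 15.7 and 14.2 CPM in WT arsenite libraries. RQ and S181E arsenite libraries, at 14.8 to 15.2 and 12.6 to 13.4 CPM, likewise all lay above their controls. In Y396E cells it had 12.4 and 11.5 CPM in arsenite replicates 1 and 2 but 4.35 CPM in replicate 3, the library that stood apart, against 6.26 to 7.30 CPM in control. RNF43 shares 69.7% of its exon bases with ENSG00000285897 on the same strand, which had 0 to 6 counts per library. ZNRF3 (chromosome 22, 28883572 to 29057488, plus strand) had 21.6 to 25.4 CPM in the 12 control libraries. Its arsenite libraries lay at 15.2 to 20.6 CPM, below all controls, apart from 9.12 CPM in Y396E arsenite replicate 3.

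AXIN2 (ENSG00000168646.14, chromosome 17, 65528563 to 65561648, minus strand) was low in WT control cells, with 0.613, 0.952 and 0.815 CPM from 20, 23 and 23 counts, and reached 3.09, 1.97 and 2.24 CPM in WT arsenite. In S181E it had 3.46, 3.49 and 2.46 CPM in control and 5.78, 5.43 and 6.76 CPM in arsenite. Y396E control libraries had 2.47, 2.74 and 2.66 CPM and its arsenite libraries 5.59, 6.23 and 11.5 CPM, the last in replicate 3. RQ libraries overlapped those of WT, at 0.517 to 1.03 CPM in control and 1.56 to 2.49 CPM in arsenite. The S181E and Y396E control libraries therefore lay above the WT and RQ controls, with no overlap. AXIN2 shares 30.9% of its exon bases with ENSG00000266076 on the same strand, which had 0 counts in every library. NKD1 (chromosome 16, 50548396 to 50649249, plus strand), the Dishevelled-binding inhibitor, had 9.89 to 13.0 CPM in WT control, 8.35 to 9.70 in RQ control, 13.4 to 17.9 in S181E control and 12.8 to 15.3 in Y396E control. Its arsenite libraries lay at 7.12 to 11.5 CPM.

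CTNNB1 (ENSG00000168036.19, chromosome 3, 41194741 to 41240445, plus strand) had a narrow spread between libraries after arsenite. WT control libraries had 91.0, 74.0 and 97.0 CPM and those of RQ 84.0, 73.5 and 78.3 CPM. The S181E control libraries had 120, 111 and 118 CPM and those of Y396E 108, 121 and 122 CPM. In arsenite all 12 libraries lay between 283 and 312 CPM. The phosphomimetic controls thus lay above the other controls, whereas the populations were near one level in arsenite.

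In the nucleus, TCF7, one of the TCF/LEF factors (chromosome 5, 134114681 to 134148229, plus strand), had 46.7 to 59.3 CPM in control and 32.5 to 50.2 CPM in arsenite libraries, the lowest again Y396E arsenite replicate 3. SP5 (ENSG00000204335.4, chromosome 2, 170715337 to 170718078, plus strand) had 0.368, 0.290 and 0.567 CPM in WT control, from 12, 7 and 16 counts, and 0.498, 0.0795 and 0.672 CPM in RQ control. In S181E control it had 2.34, 1.62 and 1.67 CPM and in Y396E control 2.11, 2.66 and 1.86 CPM. These levels were well above those of the other controls. After arsenite the WT libraries had 1.03, 1.15 and 1.70 CPM and the RQ libraries 1.38, 1.01 and 1.32 CPM. The S181E libraries then had 3.25, 4.07 and 3.96 CPM and the Y396E libraries 3.98, 3.98 and 5.54 CPM. As for AXIN2, every S181E and Y396E library was above every WT and RQ library of the same treatment.

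**Figure D1:**
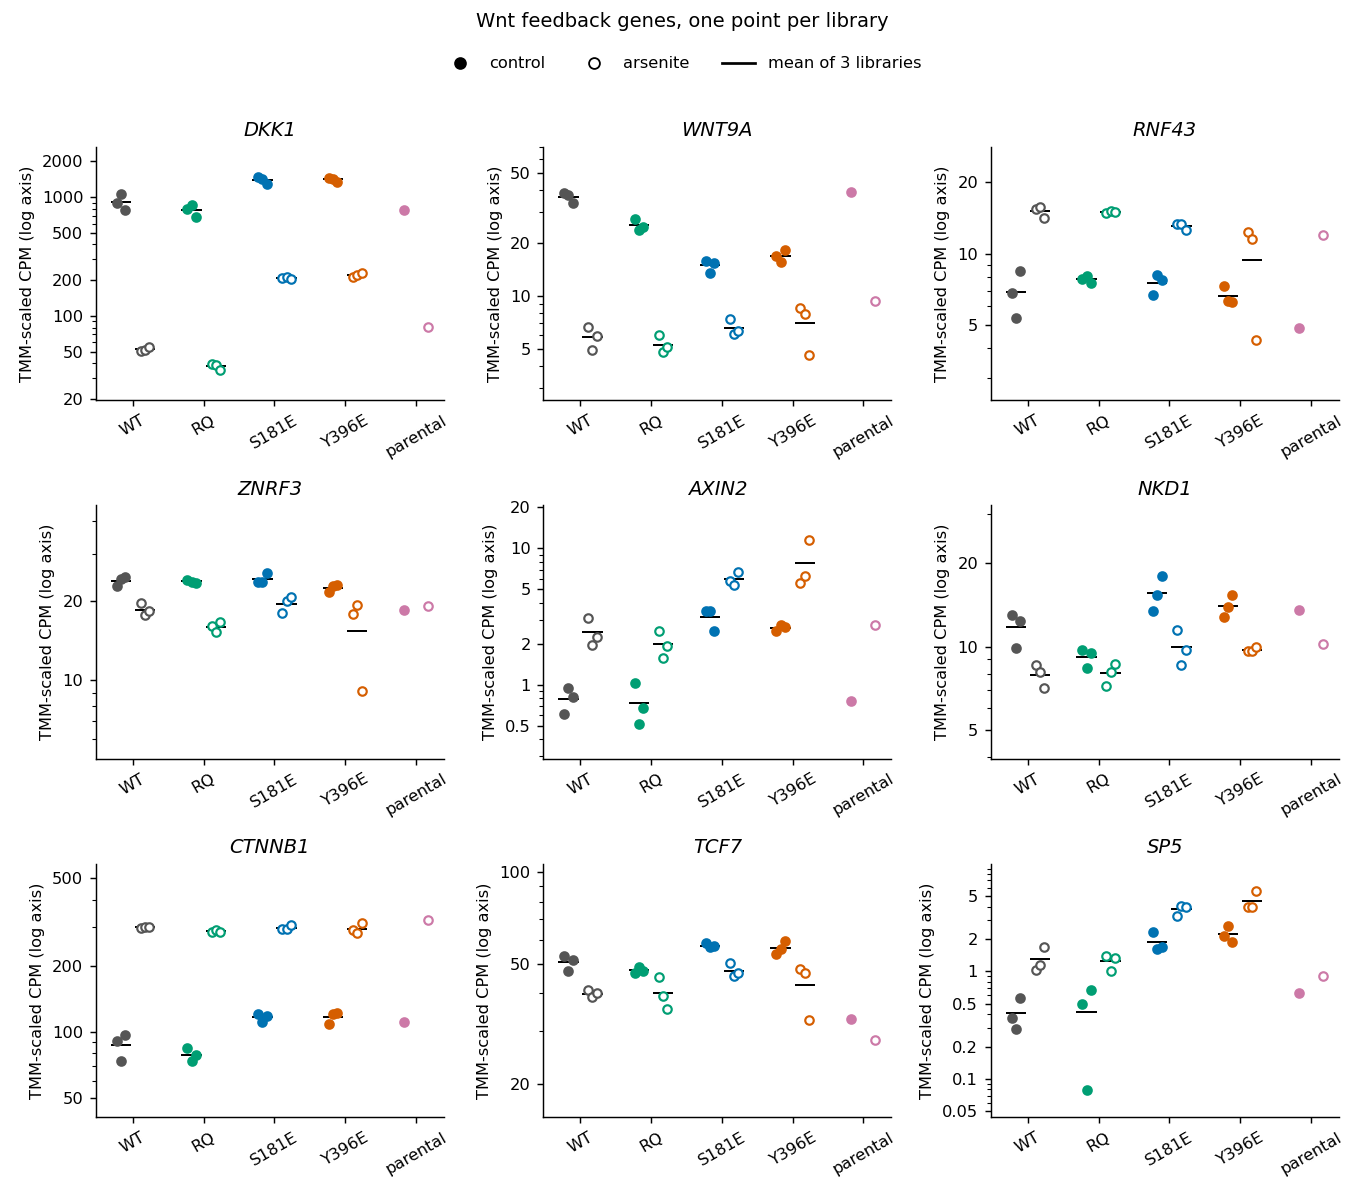
Level of 9 members in each library, as TMM-scaled CPM on a log axis that differs between panels, by population. Filled points are control and open points arsenite libraries, bars are means of 3 libraries, and the parental cells have 1 library per treatment. DKK1 and WNT9A are lower and CTNNB1, AXIN2 and SP5 higher in arsenite, and the open Y396E points of RNF43 (4.35 CPM) and ZNRF3 (9.12 CPM) at the bottom are replicate 3.

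Arsenite moved the pathway's inhibitors in opposite directions in the mutant populations, with DKK1 falling and AXIN2 rising. In S181E cells 8 of 9 members passed the test, 4 higher and 4 lower, where 58.3% of the 12167 genes tested were called (28.8% higher and 29.5% lower). In Y396E cells 8 members passed, 3 higher and 5 lower (background 60.5%, of which 30.6% higher and 29.8% lower). In RQ cells 7 passed, 4 higher and 3 lower (background 65.1%, of which 33.6% higher and 31.5% lower). A gene was called at an adjusted p under 0.05 in edgeR's quasi-likelihood test and a fold change above 1.2. The median log2 change of the members was -0.27, -0.41 and -0.19, against medians of all genes between -0.020 and 0.001. The share of members called lies above the background, but 9 genes chosen with these data known carry no test as a group.

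DKK1 fell by 2.74 ± 0.09 on the log2 scale in S181E (6.68-fold, adjusted p = 7.60e-18, ± SE here and below). It fell by 2.66 ± 0.09 in Y396E (6.30-fold, adjusted p = 1.36e-17). In RQ it fell by 4.37 ± 0.10 (20.7-fold, adjusted p = 4.85e-21). DKK1 was listed with its fall in WT cells known, so these tests are not independent of that choice. In WT cells, without a test, its log2 difference was -4.12 ± 0.10, where 64.4% of all genes met the call rule. WNT9A fell by 1.19 ± 0.16 in S181E, 1.28 ± 0.15 in Y396E and 2.27 ± 0.16 in RQ, with adjusted p of 3.54e-07, 7.88e-08 and 4.99e-12, and its WT difference was -2.66 ± 0.16. The membrane ligases parted: RNF43 rose by 0.80 ± 0.22 in S181E and 0.94 ± 0.22 in RQ (adjusted p = 0.00271 and 0.000545), while ZNRF3 fell by 0.54 ± 0.15 in Y396E and 0.57 ± 0.15 in RQ (adjusted p = 0.00277 and 0.00167). ZNRF3 in S181E differed by -0.30 ± 0.15 and did not pass (adjusted p = 0.0789). RNF43 in Y396E differed by 0.50 ± 0.23 (adjusted p = 0.0531) and, without Y396E arsenite replicate 3, was higher by 0.84 with an adjusted p of 4.77e-08. Without that library the ZNRF3 difference in Y396E was -0.27 (adjusted p = 0.00165), and ZNRF3 in S181E passed at -0.30 (adjusted p = 0.000146). The ZNRF3 call in Y396E was lost when only the groups compared were fitted (-0.54, adjusted p = 0.111).

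Inside the cell, CTNNB1 rose 2.56-fold in S181E (1.35 ± 0.07 log2), 2.52-fold in Y396E (1.33 ± 0.07) and 3.65-fold in RQ (1.87 ± 0.07), with adjusted p of 3.05e-14, 4.19e-14 and 6.99e-17. Its WT difference was 1.77 ± 0.07. AXIN2 rose by 0.94 ± 0.26, 1.57 ± 0.26 and 1.40 ± 0.32 in the same order (adjusted p = 0.00279, 1.26e-05 and 0.000395), and by 1.18 in Y396E without replicate 3. NKD1 fell by 0.65 ± 0.13 in S181E and 0.53 ± 0.13 in Y396E (adjusted p = 7.90e-05 and 0.000705) and was not called in RQ (-0.19 ± 0.13, adjusted p = 0.192). SP5, the repressor, rose by 1.00 ± 0.33, 1.03 ± 0.32 and 1.52 ± 0.40 in S181E, Y396E and RQ (adjusted p = 0.00926, 0.00681 and 0.00170). TCF7 fell by 0.27 ± 0.10 in S181E and 0.41 ± 0.10 in Y396E (adjusted p = 0.0182 and 0.000823), while its RQ difference of -0.26 ± 0.10 had an adjusted p of 0.0277 but missed the fold threshold. These TCF7 calls sit at that threshold: the S181E call was lost in 9 of 34 alternative analyses, and the Y396E call without replicate 3 (-0.25). In WT cells the differences of RNF43, AXIN2 and SP5 were 1.13 ± 0.22, 1.61 ± 0.31 and 1.66 ± 0.40, and those of ZNRF3, NKD1 and TCF7 were -0.37 ± 0.15, -0.58 ± 0.13 and -0.35 ± 0.10. The direction was thus the same in all 4 populations for each of the 9 members, though not each difference passed.

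**Figure D2:**
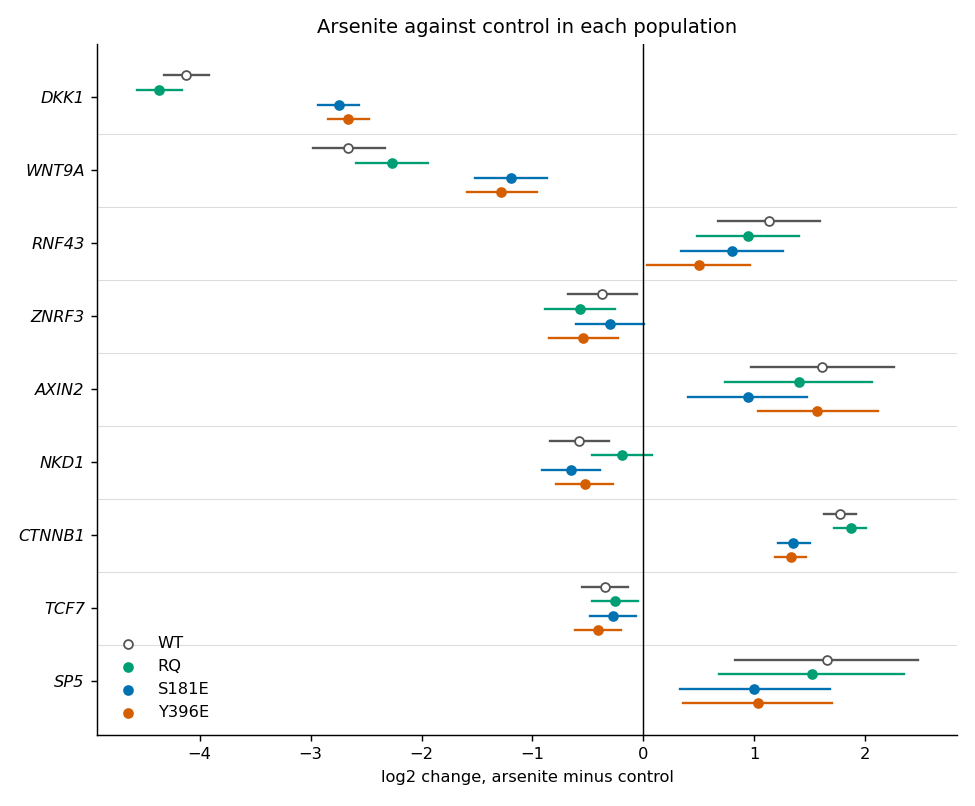
Log2 change from control to arsenite for 9 members in each population, with 95% intervals from the edgeR fit. Open grey points are WT cells, shown without a test. DKK1 lies at -4.12 in WT and -4.37 in RQ but at -2.74 in S181E and -2.66 in Y396E.

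In unstressed cells the phosphomimetic populations had more of the low-abundance feedback genes AXIN2 and SP5 than WT cells and less WNT9A. DKK1 carries no test against WT and is left out of the calls named here. The tests of the other members against WT are not independent of the choice of members, which was made with earlier results known. In S181E AXIN2, SP5, CTNNB1 and NKD1 were called higher and WNT9A lower. Of all genes 27.3% were called (14.3% higher and 13% lower). In Y396E AXIN2, SP5 and CTNNB1 were called higher and WNT9A lower (background 25.1%, of which 12.5% higher and 12.6% lower). In RQ no member was called (background 1.05%). There WNT9A, NKD1 and CTNNB1 had an unadjusted p under 0.05 in edgeR, as did 12.2% of all genes (1481). DESeq2 called WNT9A. The median log2 difference of the members was 0.40 in S181E, 0.25 in Y396E and -0.09 in RQ, against 0.016, 0.006 and -0.007 over all genes. The S181E and Y396E comparisons share the 3 WT libraries and are not independent of each other. With library totals as the only scaling, the all-gene median shifted by 0.16 in S181E and 0.14 in Y396E (log2), the share of called genes that were higher went from 52.4% to 82% and from 49.8% to 79.8%, and the called members kept their direction.

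SP5 was 4.54-fold higher in S181E control than in WT control cells (2.18 ± 0.39 log2, adjusted p = 0.000108) and 5.32-fold higher in Y396E (2.41 ± 0.39, adjusted p = 3.97e-05). AXIN2 was 3.97-fold higher in S181E (1.99 ± 0.31, adjusted p = 1.77e-05) and 3.33-fold higher in Y396E (1.74 ± 0.31, adjusted p = 0.000118). Both genes rest on few counts in WT cells, 7 to 23 per library. DKK1 was 1.53-fold higher in S181E and 1.55-fold higher in Y396E (0.62 ± 0.08 and 0.63 ± 0.08, values without a test). CTNNB1 itself was 1.33-fold and 1.34-fold higher (0.41 ± 0.07 and 0.42 ± 0.07, adjusted p = 5.48e-05 and 4.74e-05). NKD1 rose by 0.40 ± 0.13 in S181E (adjusted p = 0.0142), a call lost without WT control replicate 2 (0.28, adjusted p = 0.109) or S181E control replicate 3 (0.28, adjusted p = 0.114), and differed by 0.25 ± 0.13 in Y396E (adjusted p = 0.135). WNT9A fell to 15.0 ± 1.22 CPM in S181E and 16.9 ± 1.31 in Y396E from 36.5 ± 2.55 in WT (SD, n = 3), which is 2.43-fold and 2.16-fold lower (adjusted p = 2.29e-07 and 1.94e-06).

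The remaining members did not pass in control cells. RNF43 differed from WT by 0.12 ± 0.23 in S181E and -0.06 ± 0.23 in Y396E, with 95% intervals from -0.36 to 0.59 and from -0.54 to 0.42. ZNRF3 differed by 0.02 ± 0.15 and -0.09 ± 0.15, and TCF7 by 0.18 ± 0.10 and 0.15 ± 0.10. In RQ cells the differences ran from -0.53 ± 0.14 for WNT9A (adjusted p = 0.0568) to 0.17 ± 0.23 for RNF43. WNT9A in RQ was below WT in all 3 libraries and was called in 9 of the 34, among them without Y396E arsenite replicate 3 (adjusted p = 6.68e-05).

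After arsenite, DKK1 differed most from WT among the members, at 209 ± 5.48 CPM in S181E and 224 ± 8.30 CPM in Y396E against 52.4 ± 1.78 CPM in WT and 38.0 ± 2.38 CPM in RQ (SD, n = 3). It was 3.99-fold higher in S181E than in WT (2.00 ± 0.09 log2) and 4.27-fold higher in Y396E (2.09 ± 0.09). In RQ it was 1.38-fold lower (-0.47 ± 0.09, or -0.41 without RQ arsenite replicate 3). These differences rest on the WT arsenite libraries that singled DKK1 out and carry no test. DKK1 is therefore left out of the calls that follow. AXIN2 and SP5 were called in S181E, both higher, where 12.8% of genes were called (5.43% higher and 7.34% lower). In Y396E AXIN2 and SP5 were called higher and RNF43 lower (background 21.4%, of which 10.2% higher and 11.2% lower). With DKK1 left out, no member was called in RQ (background 1.12%, of which 0.978% higher and 0.14% lower).

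The called members that were higher in arsenite were again AXIN2 and SP5. AXIN2 was 2.49-fold higher in S181E (1.32 ± 0.26, adjusted p = 0.000775) and 3.23-fold higher in Y396E (1.69 ± 0.26, adjusted p = 3.13e-05), the latter 1.32 without replicate 3. SP5 was 2.89-fold higher in S181E (1.53 ± 0.33, adjusted p = 0.00168) and 3.45-fold higher in Y396E (1.78 ± 0.33, adjusted p = 0.000247). RNF43 was lower in Y396E by 0.69 ± 0.21 (adjusted p = 0.0171), a value that became -0.35 (adjusted p = 0.0102) without Y396E arsenite replicate 3, and the call was lost without WT arsenite replicate 2 (-0.66, adjusted p = 0.0535) and when only the groups compared were fitted (-0.69, adjusted p = 0.256). WNT9A, lower in both populations before stress, differed from WT by 0.18 ± 0.16 in S181E and 0.27 ± 0.16 in Y396E after it (adjusted p = 0.516 and 0.203). Without Y396E arsenite replicate 3 the Y396E difference was 0.50 and passed (adjusted p = 0.000994). CTNNB1 differed from WT by -0.01 ± 0.07 in S181E and -0.02 ± 0.07 in Y396E, with 95% intervals from -0.14 to 0.13 and from -0.16 to 0.12.

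**Figure D3:**
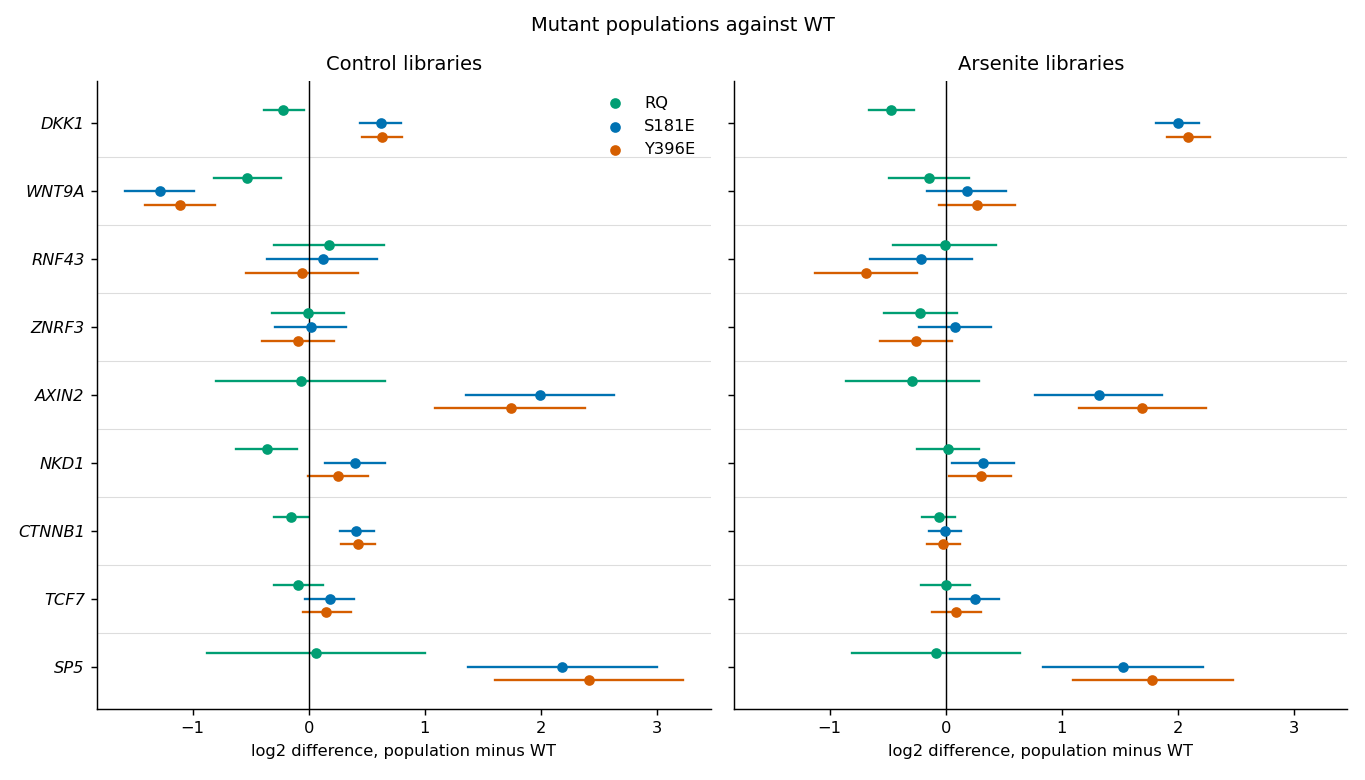
Log2 difference of each mutant population from WT for 9 members, with 95% intervals, in control libraries (left) and arsenite libraries (right). AXIN2 and SP5 lie to the right of 0 in S181E and Y396E in both panels, DKK1 moves from 0.62 and 0.63 in control to 2.00 and 2.09 in arsenite, and WNT9A lies at -1.28 and -1.11 in control cells.

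The phosphomimetic populations were also compared with each other. No member differed between Y396E and S181E in edgeR, in control or in arsenite, and no gene among the 12167 tested was called (background 0% in both). At an unadjusted p under 0.05 there were 411 genes and 0 members in control, and 1783 genes and 2 members, RNF43 and ZNRF3, in arsenite. DESeq2 called 1 and 10 genes, none of them a member. For DKK1 the difference was 0.01 ± 0.08 in control (95% interval from -0.16 to 0.18) and 0.10 ± 0.09 in arsenite (from -0.08 to 0.27), and for AXIN2 it was -0.25 ± 0.27 and 0.38 ± 0.25. RNF43 and ZNRF3 differed by -0.48 ± 0.22 and -0.35 ± 0.15 in arsenite (adjusted p = 0.319 and 0.312), and by -0.14 and -0.08 without Y396E arsenite replicate 3. ZNRF3 was called at -0.56 (adjusted p = 0.0365) when Y396E arsenite replicate 2 was left out, which leaves replicate 3 as 1 of the 2 Y396E arsenite libraries.

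The size of the arsenite response was compared with that of RQ cells, because the WT response had singled out DKK1. The members were still chosen with earlier results of these data known. The RQ response of DKK1 was near that of WT (-4.37 against -4.12). The tests below are therefore not independent of the choice of members. DKK1 fell less in both phosphomimetic populations, by 1.63 ± 0.12 on the log2 scale in S181E (adjusted p = 9.57e-09) and 1.71 ± 0.12 in Y396E (adjusted p = 4.30e-09). WNT9A also fell less, by 1.07 ± 0.22 (adjusted p = 0.00222) and 0.99 ± 0.22 (adjusted p = 0.00291). For CTNNB1 the rise was smaller, by 0.51 ± 0.10 (adjusted p = 0.00112) and 0.54 ± 0.10 (adjusted p = 0.000604). These were the called members, 2 with a higher and 1 with a lower log2 response in each case, where the call rule took 15% of all genes in the S181E comparison (5.24% with a higher response, 9.81% with a lower one) and 18.3% in that of Y396E (7.92% and 10.3%). Without Y396E arsenite replicate 3, NKD1 (-0.47, adjusted p = 0.0296) and ZNRF3 (0.27, adjusted p = 0.0316) were also called for S181E, and ZNRF3 (0.30, adjusted p = 0.0244) for Y396E. AXIN2 and SP5 responses did not pass, at -0.46 ± 0.41 and -0.51 ± 0.52 in S181E and 0.17 ± 0.42 and -0.48 ± 0.51 in Y396E.

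A smaller response went with different starting points in these genes. DKK1 started higher and ended higher in S181E and Y396E, WNT9A started lower and ended at 6.58 ± 0.692 and 7.01 ± 2.11 CPM, near the 5.29 ± 0.596 CPM of RQ, and CTNNB1 started higher and ended near the same level, at 297 ± 7.49 and 295 ± 14.8 CPM against 287 ± 4.62 CPM in RQ (SD, n = 3). Against the WT response, given without a test, the log2 responses of DKK1, WNT9A and CTNNB1 differed by 1.38 ± 0.12, 1.46 ± 0.22 and -0.42 ± 0.10 in S181E and by 1.46 ± 0.12, 1.38 ± 0.21 and -0.44 ± 0.10 in Y396E. In RQ they differed by -0.25 ± 0.13, 0.39 ± 0.22 and 0.10 ± 0.10. Both phosphomimetic comparisons use the same RQ and WT libraries.

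The parental cells, labelled as HCT116 alone, had 1 library per treatment and gave no test. Their members were lower in arsenite for DKK1 (782 and 80.8 CPM in control and arsenite), WNT9A (39.2 and 9.32), NKD1 (13.6 and 10.2) and TCF7 (32.8 and 28.0). They were higher for RNF43 (4.87 and 12 CPM), AXIN2 (0.765 and 2.75), CTNNB1 (111 and 323) and SP5 (0.626 and 0.907, from 18 and 33 counts), and ZNRF3 had 18.5 and 19.0 CPM. AXIN2, SP5 and WNT9A of the parental control library were within or next to the WT range and outside those of S181E and Y396E. CTNNB1 and NKD1 in that library, at 111 and 13.6 CPM, were instead within the S181E and Y396E ranges. TCF7 was below every library of the 4 populations in its treatment. DKK1 in the control library was within the WT range. Its 80.8 CPM after arsenite lay above every WT and RQ library of that treatment and below every S181E and Y396E library.

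Other genes of the pathway were taken from a list of 94 ligands, receptors, inhibitors, cytoplasmic and nuclear components and targets, of which 64 were tested. In control cells 16 of the 64 (25%) were called in S181E against WT, 6 higher and 10 lower, and 16 in Y396E, 7 higher and 9 lower, with medians of -0.01 in both. Those shares are near the backgrounds of 27.3% and 25.1% given above. BMP4, a secreted growth factor gene on the list as a Wnt target, rose most, from 93.1 ± 10.7 CPM in WT to 285 ± 4.87 in S181E and 280 ± 11.5 in Y396E (SD, n = 3), by 1.62 ± 0.07 and 1.59 ± 0.07 on the log2 scale (adjusted p = 4.38e-14 and 3.74e-14). NOTUM, a secreted enzyme that inactivates Wnt ligands, rose by 0.52 ± 0.08 in S181E (adjusted p = 2.38e-05) and was also called in Y396E (0.59). The receptor gene FZD1 rose by 0.66 ± 0.21 in Y396E (adjusted p = 0.0140) and was not called in S181E (0.49). The FZD1 call was lost without WT control replicate 1 (0.60), WT control replicate 2 (0.63) or Y396E control replicate 1 (0.58). Without Y396E arsenite replicate 3, a library of neither group, it was 0.66 with an adjusted p of 1.81e-06. The ligand gene WNT16 fell by 0.90 ± 0.06 and 1.02 ± 0.06 (adjusted p = 2.67e-11 and 3.79e-12), as WNT9A did. FZD6, a Frizzled receptor, fell by 0.93 ± 0.09 and 0.97 ± 0.09 (adjusted p = 1.00e-08 and 6.40e-09), and lies on chromosome 8, whose 405 tested genes had medians of -0.41 and -0.43 in these comparisons. By role, 5 of 14 receptor genes were lower in each population, FZD6 among them, where 13% and 12.6% of all genes were lower. Of 16 intracellular genes 2 were called in S181E and 1 in Y396E, where 27.3% and 25.1% of all genes were called. The shares called in the other roles ran from 14.3% of ligand genes to 50% of 4 extracellular inhibitors in each population.

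After arsenite 13 of the 64 differed from WT in S181E (7 higher and 6 lower) and 17 in Y396E (10 higher and 7 lower), 20.3% and 26.6% against 12.8% and 21.4% of all genes. BMP4 was again higher, by 1.34 ± 0.07 and 1.31 ± 0.07 (adjusted p = 1.39e-12 and 1.65e-12), and WNT16 lower, by -1.16 ± 0.06 in both (adjusted p = 9.82e-13 and 5.93e-13). FZD6 was lower by -0.85 ± 0.09 and -0.74 ± 0.09 (adjusted p = 9.97e-08 and 5.54e-07). NOTUM was called in both, at 0.61 and 0.77. FZD1 was higher in S181E by 0.77 ± 0.21 (adjusted p = 0.00974), a call lost without S181E arsenite replicate 3 (0.68). Without Y396E arsenite replicate 3 this FZD1 difference was 0.78 (adjusted p = 2.42e-07). FZD1 was also called in Y396E (1.21), where its libraries ran from 9.87 to 23.5 CPM. EPHB3, an ephrin receptor gene, was higher in Y396E by 1.39 ± 0.29 (adjusted p = 0.000763), or by 0.70 without Y396E arsenite replicate 3, and did not pass when only the groups compared were fitted (adjusted p = 0.0887). In RQ cells BMP4 alone among the 64 was called. It was lower by -0.32 ± 0.07 in control (adjusted p = 0.0183), a call lost when WT control replicate 2 (-0.23) or replicate 3 of the RQ controls (-0.25) was left out, and by -0.46 ± 0.07 in arsenite (adjusted p = 0.000571).

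Under arsenite itself 34, 38 and 40 of the 64 were called in S181E, Y396E and RQ cells (53.1%, 59.4% and 62.5%, each below the 58.3%, 60.5% and 65.1% of all genes), with 16, 17 and 18 of them higher. EPHB3 rose by 2.42 ± 0.33, 2.96 ± 0.32 and 2.20 ± 0.35 (adjusted p = 5.54e-07, 1.70e-08 and 5.47e-06), the Y396E value being 2.27 without replicate 3. FZD2 rose by 1.08 ± 0.10 in S181E and 1.11 ± 0.10 in Y396E, and BCL9, a beta-catenin co-activator gene, by 1.12 ± 0.08 in RQ. Its paralog BCL9L fell by 0.91 ± 0.05 in S181E and 1.33 ± 0.05 in RQ, and FZD5 fell by 1.35 ± 0.10 in RQ, with every adjusted p of these 6 changes at 1.80e-09 or less. WNT16 fell by 1.22 ± 0.06 in S181E (adjusted p = 1.62e-14). These genes were called in the same direction in the populations not named for them. FZD2 was at 0.99 in RQ, BCL9 at 0.96 in S181E and 0.78 in Y396E, and BCL9L at -0.86 in Y396E. FZD5 was at -0.81 in S181E and -0.88 in Y396E, and WNT16 at -1.11 in Y396E and -1.09 in RQ. WNT10A and WNT2B fell in Y396E by 1.70 ± 0.53 and 1.45 ± 0.52 (adjusted p = 0.00681 and 0.0167), values that were -1.09 and -0.85 without replicate 3, where both were at 0 CPM, and neither passed when only the groups compared were fitted (adjusted p = 0.236 and 0.305). Among the 14 ligand genes tested 1 was higher in each population and 2, 6 and 6 were lower. The shares called were 21.4%, 50% and 50%, each below that of all genes, of which 29.5%, 29.8% and 31.5% were lower. The 6 in Y396E include WNT10A and WNT2B. For the response relative to RQ, 6 of the 64 were called in S181E (12 without Y396E arsenite replicate 3) and 11 in Y396E, 9.38% and 17.2% against 15% and 18.3% of all genes.

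**Figure D4:**
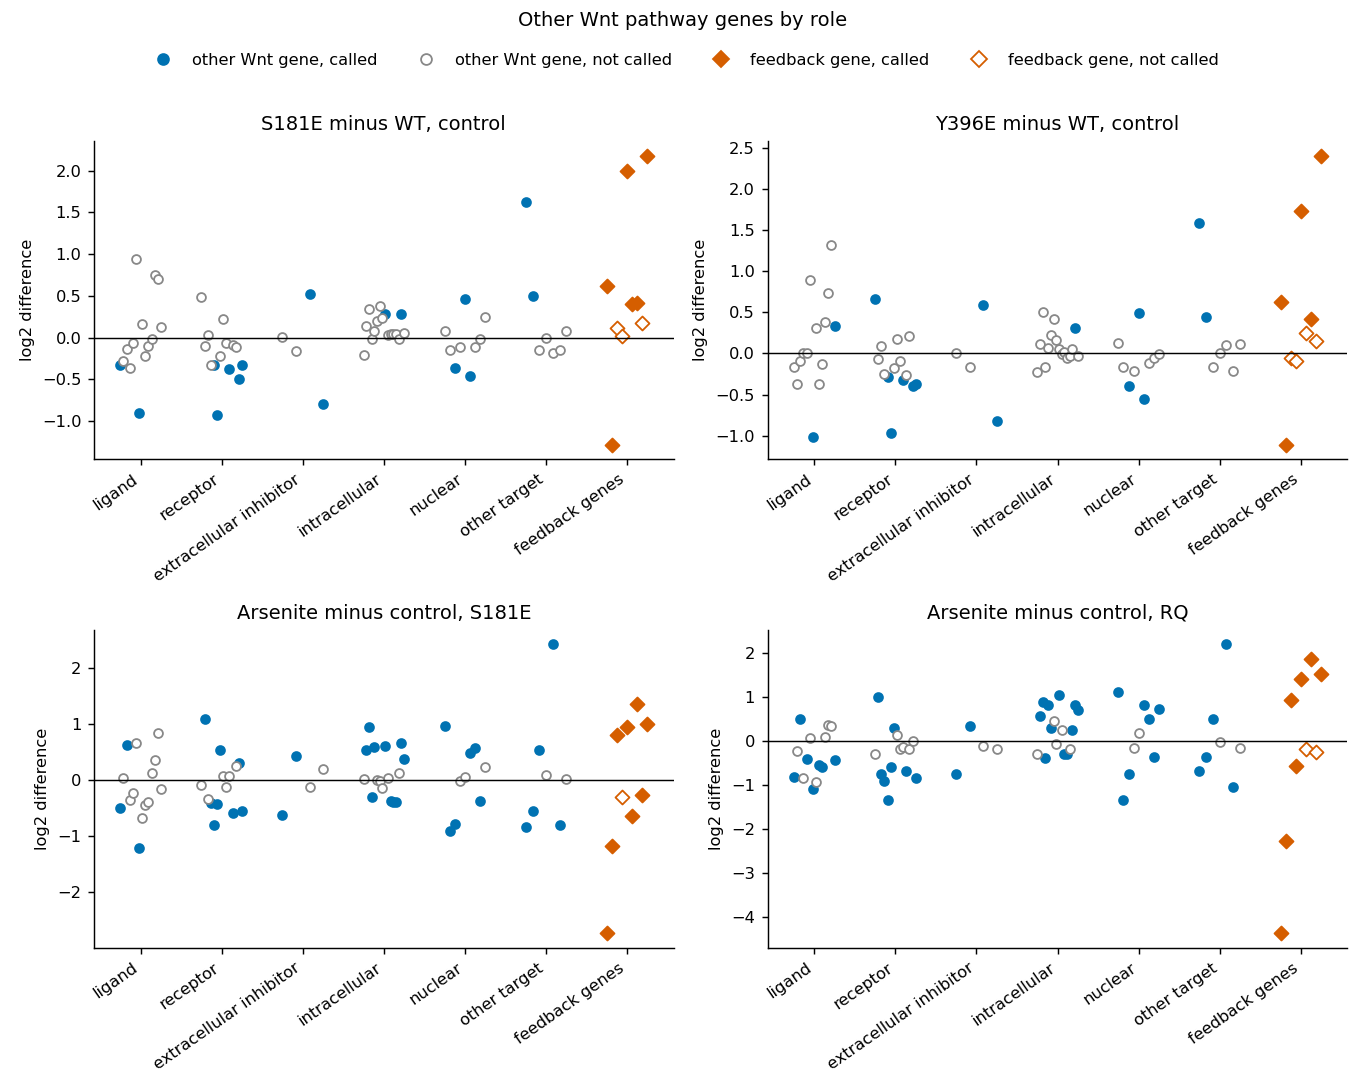
Log2 differences of 64 other Wnt pathway genes by role (circles) and of the 9 tested feedback genes (diamonds) in 4 comparisons, on separate linear axes. Filled symbols are called genes, and DKK1 is filled in the upper panels although its difference from WT carries no test. The highest circle in the upper panels is BMP4 (1.62 and 1.59), and the lowest diamond in the lower panels is DKK1 (-2.74 and -4.37).

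The genes whose pattern was most like that of DKK1, by Pearson's r of log2 CPM over the 24 libraries, were ID3 (0.994), PDLIM2 (0.992), TIMP2 (0.991), DYNLT1 (0.991) and POLR2E (0.986). None is a member or on the list of other Wnt genes. All 24 libraries fall into 8 groups that differ by arsenite, so r mostly follows group means and carries no test. Each of the 5 was lower in arsenite in every population, with smaller differences than DKK1. The log2 difference of ID3 was -1.71 in WT and -1.79 in RQ, against -1.40 in S181E and -1.18 in Y396E, and that of POLR2E ran from -0.48 to -0.30.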

How the data were processed

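Poly(A) RNA from clarified lysates was sequenced with a directional kit. The deposited values are counts per gene, which the authors made with featureCounts 2.0.6 (reverse-strand setting, GENCODE 46 basic annotation, hg38, per the file headers). The submitters' processing notes list bcl2fastq 2.20.0.422, FastQC 0.11.9 and STAR 2.7.11b. Column 7 of each table was used, and 62541 of 63086 identifiers were given symbols with GENCODE 44.

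Protein-coding genes with a mean of at least 0.5 CPM over the 24 libraries were tested (12167 genes) with edgeR 4.0.16 in R 4.3.3, using TMM scaling, 1 mean per group, quasi-likelihood F-tests and Benjamini-Hochberg adjustment over all genes tested in each of 13 comparisons. A call needed an adjusted p under 0.05 and a fold change above 1.2. SE values and 95% intervals come from the same fit, in which all groups share 1 estimate of the spread. P-values measure the spread between dishes of 1 population.

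The members and gene lists were chosen with earlier results of these data known. Among the other Wnt genes, those named in each comparison are the called genes with the largest changes and no overlap between the groups, at most 2 per direction. Genes like DKK1 are the 5 with the highest Pearson's r. Alternatives were DESeq2 1.42.0, DESeq2 size factors, library totals, other filters and fold thresholds, a replicate block, a fit of the compared groups alone and leaving out each library. Between 2 replicates, counts differed beyond sampling noise in every pair.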

Additional observations from a re-analysis of the deposited data

Results flagged for a closer look

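The arsenite response of 3 genes differed between populations by a test of the difference itself (edgeR, quasi-likelihood, adjusted over all genes tested). Of all genes, 15% were called for S181E minus RQ and 18.3% for Y396E minus RQ. The members were chosen with earlier results of these data known, so these tests are not independent of that choice. For S181E minus RQ, the log2 response differed by 1.63 for DKK1 (adjusted p = 9.57e-09), 1.07 for WNT9A (adjusted p = 0.00222) and -0.51 for CTNNB1 (adjusted p = 0.00112). For Y396E minus RQ it differed by 1.71 for DKK1 (adjusted p = 4.30e-09), 0.99 for WNT9A (adjusted p = 0.00291) and -0.54 for CTNNB1 (adjusted p = 0.000604). Arsenite and control groups of DKK1, WNT9A and CTNNB1 did not overlap in any population. The share of all genes without such overlap was not counted. Under arsenite 58.3%, 60.5% and 65.1% of all genes were called in S181E, Y396E and RQ. Each group had 3 libraries, too few for a test of single outlying libraries.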

How the results depend on the processing

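Of 5134 alternative values of the 9 members tested over 34 settings, 5057 stayed on the same side of the thresholds, 34 lost a call, 41 gained one and 2 untested WT differences moved (ZNRF3 -0.19 and TCF7 -0.17 under arsenite with library totals). No called value changed direction, and 87 uncalled values changed sign. The tally includes the DKK1 differences from WT, which carry no test.

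For the counts of members called, the study's filter of over 10 CPM in 12 libraries kept 5 members among 9019 genes. It gave 3, 5 and 4 under arsenite in S181E, Y396E and RQ, where 5899, 5942 and 6582 genes were called. Against WT in control it called WNT9A and CTNNB1 in S181E and in Y396E (2806 and 2579 genes). With DKK1 left out, it called no member against WT in arsenite (1237 and 1949 genes). DKK1 carries no test against WT and is left out of the calls against WT in this paragraph. A fold change above 2 gave 4 and 5 under arsenite in S181E and Y396E (1273 and 1495 of 12167 genes). It gave 3 and 3 against WT in control (210 and 217 genes). For RQ in arsenite it gave 0 (14 genes) and for the Y396E response against RQ 1 (73 genes). For RQ against WT in control, 1 member (WNT9A) was called with library totals, DESeq2, the study's filter, no filter beyond 1 count, the replicate block and only the groups compared. In that order these settings called 124, 178, 129, 119, 149 and 95 genes, against 128 in the main fit. The count of members was 0 to 1 when a library was left out, the 1 without any of the Y396E arsenite replicates. The replicate block changed no other call of a member. Correlations of the deviations of same-numbered libraries ran from -0.031 to 0.215, and no comparison had all 3 pairs above 0.1 (RQ against WT in control came nearest, with 0.08, 0.215 and 0.157), so the numbers were not taken to pair samples. Leaving out a library gave 0 to 1 for Y396E against S181E in arsenite. For the S181E response against RQ it gave 3 to 5 (5 without Y396E arsenite replicate 3). A fit of only the groups compared also gave 5 for that response, with 2794 genes called against 1831 in the main fit. The cause was not tested.

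With library totals the all-gene median shifted by 0.17 and 0.18 (log2) under arsenite in WT and RQ and by -0.13 in both responses against RQ. The share of called genes that were higher became 64.1% under arsenite in RQ (51.6% with TMM), 41.9% for RQ in control (64.1%), 57.1% for S181E in arsenite (42.5%), and 12.6% and 17.9% for the S181E and Y396E responses (34.8% and 43.4%). AXIN2 and SP5 in WT and RQ control cells rest on 2 to 31 counts per library, which limits the precision of their fold changes.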
